A study of Homo sapiens with 8 samples.

Results

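The genes described here build the motile cilium: axonemal dynein heavy chains (DNAH), intermediate and light chains (DNAI and DNALI1), dynein assembly factors (DNAAF), radial spoke proteins (RSPH), tektins (TEKT), cilia and flagella associated proteins (CFAP), the ruler proteins CCDC39 and CCDC40, and FOXJ1. They were taken by symbol from the deposited count table, as protein-coding genes whose name begins with one of these stems and a digit, plus CCDC39, CCDC40, DNALI1 and FOXJ1. This gave 93 genes of 58884 in the table. The rule uses names and no expression value, but it was set with earlier results of these data known. RNA was measured in U87 cells, an established human glioblastoma line, in 4 groups of 2 libraries: cells given DMSO, the solvent control; cells under long-term AsiDNA treatment; cells given belinostat; and cells given both, called the combination here. Belinostat, a hydroxamate inhibitor of histone deacetylases, was given at 1 µM for 24 h. AsiDNA is a short double-stranded DNA that mimics a broken DNA end and engages DNA repair signalling. The sources used here do not give its dose and duration, and the groups share the line and the culture medium. The labels do not say whether the 2 libraries of a group came from separate cultures, so the p-values measure the spread between these libraries, which may be technical.

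A motile cilium is a rod of doublet microtubules around a central pair. Outer and inner dynein arms sit along each doublet and slide it against its neighbour, radial spokes carry signals from the central pair to the arms, and the arms are put together in the cytoplasm by the assembly factors before they enter the cilium. In multiciliated cells of the airway and ependyma these genes are switched on together by FOXJ1 and by RFX factors, which bind a DNA element called the X-box. Many other cell types, glia among them, carry a single primary cilium, which lacks dynein arms.

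Depth ranged from 6057394 to 9699637 counts per library. The long nuclear RNAs MALAT1 and NEAT1 took 0.911% of counts in DMSO replicate 1, 2.82% in DMSO replicate 2, 0.688% and 0.753% in the AsiDNA libraries, 12.2% and 13.4% in the belinostat libraries, and 2.06% and 3.12% in the combination. The DMSO replicates stood apart from each other: 11.1% of 8142 well-covered genes differed by over 1.5-fold between them, against 0.184% to 0.786% in the other groups. Of 9 astrocyte and glioma markers, GFAP, S100B, AQP4, ALDH1L1 and SOX2 were at or near 0 in the 8 libraries, the highest being GFAP at 0.486 CPM (counts scaled to a common library size) in DMSO replicate 2, whereas VIM, which U87 cells share with mesenchymal cells, stood at 1370 to 5960 CPM.

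The promoters of these genes are shown first, because the RFX element is their best known common feature. RefSeq promoter windows (GRCh38.p14, 250 bases before to 50 after a start) were found for 77 of the 93 genes. The X-box, searched as its 14-base consensus on both strands, was present in 18 of these 77 genes (23.4%). Its share among all 27305 genes of the promoter set was 2.23%. That set, unlike the genes described here, was not restricted to protein-coding genes. The shorter motif GTTGCC, which some X-boxes contain, was present in 39 (50.6%) against 14.6%, and the forkhead motif GTAAACA in 4 (5.19%) against 4.19%. The X-box matches began between 105 bases before and 14 bases after the start, with a median of -17.5, and 13 of 18 lay within 50 bases of it. The windows held more G and C than those of all genes (medians 61.3% and 58.3%), and no allowance was made for this in the shares. Below are the 250 bases before the start of 3 genes to which the results return, 5′ to 3′ on the gene's strand (plus for each). They are DNAI1, the gene with the largest response, CFAP251, a gene with an X-box that rose, and DNALI1, a gene with an X-box that fell. Capitals mark the X-box in CFAP251 and DNALI1, and in DNAI1 the reverse complement of GTTGCC; counted from the start, the match begins at -32, -17 and -234.
CFAP251 (chr12:121918342-121918591): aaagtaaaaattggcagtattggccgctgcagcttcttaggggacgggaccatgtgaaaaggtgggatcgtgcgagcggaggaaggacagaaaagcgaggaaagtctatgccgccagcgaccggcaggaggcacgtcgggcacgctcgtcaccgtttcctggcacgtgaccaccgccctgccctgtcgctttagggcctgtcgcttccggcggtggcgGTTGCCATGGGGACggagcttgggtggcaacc
DNALI1 (chr1:37556690-37556939): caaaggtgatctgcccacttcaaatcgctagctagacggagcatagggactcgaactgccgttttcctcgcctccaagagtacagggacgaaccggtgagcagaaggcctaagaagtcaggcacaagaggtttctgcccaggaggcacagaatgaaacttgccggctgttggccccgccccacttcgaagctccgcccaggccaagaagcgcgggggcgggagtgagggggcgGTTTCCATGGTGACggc
DNAI1 (chr9:34458555-34458804): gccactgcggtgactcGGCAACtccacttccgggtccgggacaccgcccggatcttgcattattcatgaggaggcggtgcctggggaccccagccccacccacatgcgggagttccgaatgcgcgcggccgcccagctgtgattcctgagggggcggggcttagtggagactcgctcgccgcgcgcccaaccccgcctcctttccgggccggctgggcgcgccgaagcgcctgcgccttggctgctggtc
The letters of the full X-box consensus were not found in the DNAI1 window. A match is a description of the letters and was not tested as a binding site.

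Many of these genes had few or no counts in any condition. Of the 93 genes, 46 had enough counts to be tested and 47 had not. Over the 8 libraries, 7 of the 93 had no count at all: CCDC39, CFAP100, CFAP126, CFAP47, CFAP77, CFAP90 and DNAI2. The 0 of CFAP126 is less certain, because all 774 of its exon bases overlap SDHC on the opposite strand. That of CCDC39 is less certain too, as described below. A further 28 had 1 to 10 counts over the 8 libraries. A count of 0 allows a level of up to 0.291 to 0.506 CPM in a library (3 counts, for counting error only). The untested genes with the most counts were DNAH10 with 51, DNAH17 with 38 and CFAP157 with 36 over the 8 libraries. FOXJ1, the transcription factor that drives the motile cilium program, had no count in 7 libraries and 4 counts in combination replicate 2. Of the 5 tektin genes, whose products line the doublet microtubules, 0 passed the filter, and of the 8 radial spoke genes 2 did. By role, the tested genes were 2 of 5 outer arm heavy chains, 4 of 8 other heavy chains, 5 of 6 intermediate and light chains, 8 of 10 assembly factors, 1 of 2 ruler genes and 24 of 48 CFAP genes.

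The number of cilia genes detected and their summed level were higher in the belinostat libraries, where more of all genes were detected too. At least 1 CPM was reached by 33 and 40 of the 93 genes in DMSO and by 50 and 49 in belinostat. For all genes in the table these numbers were 13349 and 14034 in DMSO and 14789 and 15103 in belinostat. Detection by at least 1 count also depends on depth. In DMSO, 62 and 64 of the 93 genes had at least 1 count, in AsiDNA 58 and 61, in belinostat 76 and 68, and in the combination 64 and 66. The summed level of the 93 genes was 395.2 and 413.9 CPM in DMSO, 383.9 and 393.3 in AsiDNA, 742.4 and 732.2 in belinostat and 486.4 and 473.2 in the combination. The belinostat libraries lay above the other 6, and the combination libraries lay between them and the rest. In these bulk samples a change in the share of cells that transcribe a gene and a change in RNA per cell cannot be told apart.

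**Figure D1:**
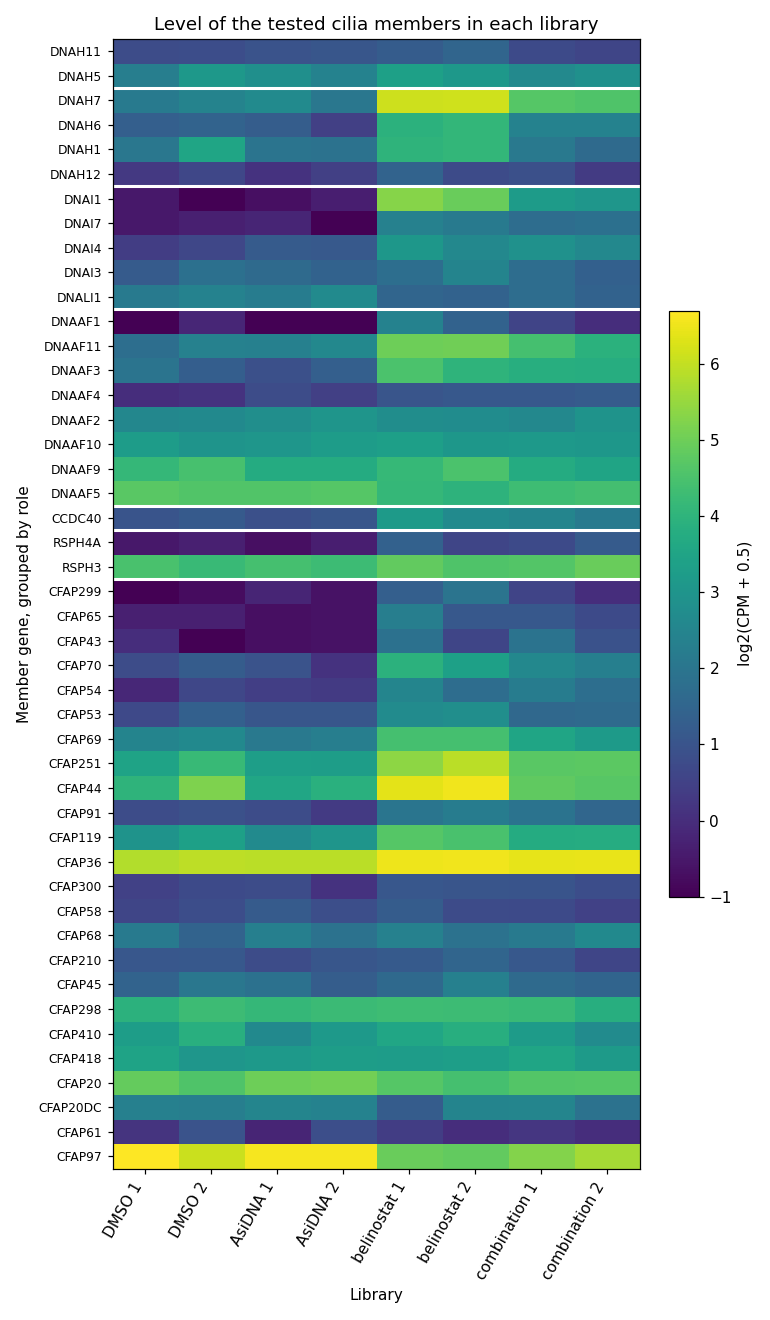
Level of the 46 tested genes (rows, grouped by role and, within a role, ordered by the belinostat response) in the 8 libraries (columns), as log2(CPM + 0.5) in colour. DNAI1, DNAH7 and DNAAF11 are brighter in the belinostat columns and of middle brightness in the combination columns, and CFAP97 in the last row is darker in both.

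Belinostat against DMSO asks what the inhibitor alone does to these genes. By edgeR's quasi-likelihood test with Benjamini-Hochberg adjustment over 14741 genes, 24 of the 46 tested genes rose and 3 fell at an adjusted p under 0.05. The same rule called 57.4% of all tested genes, 29.8% higher and 27.6% lower, beside which 52.2% of the 46 cilia genes were higher and 6.52% lower. The median log2 fold change of the 46 was 1.04, and that of all tested genes 0.06. Genes that reached the filter level in fewer than 2 DMSO or AsiDNA libraries needed libraries with belinostat, alone or in the combination, to pass. They are said here to reach it only with belinostat, and the filter favours those that are higher there. Of the 46, 10 were such genes (CFAP299, CFAP43, CFAP54, CFAP65, DNAAF1, DNAAF4, DNAH12, DNAI1, DNAI7 and RSPH4A). Of these, 9 were called higher, as were 57.2% of the 1446 such genes in the table. Of the other 36, which reached the filter level of 1.22 CPM in at least 2 DMSO or AsiDNA libraries, 15 rose and 3 fell (41.7% and 8.33%) with a median log2 fold change of 0.56, against 26.8% and 30.6% of the 13295 genes that did so. The shares of MALAT1 and NEAT1 moved with belinostat, and so did the share of counts on sense-intronic genes (0.057% and 0.113% in DMSO, 0.128% and 0.142% in belinostat). Once that share entered the model as a term, 23 genes rose and 3 fell, where 52.4% of all tested genes were called.

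**Figure D2:**
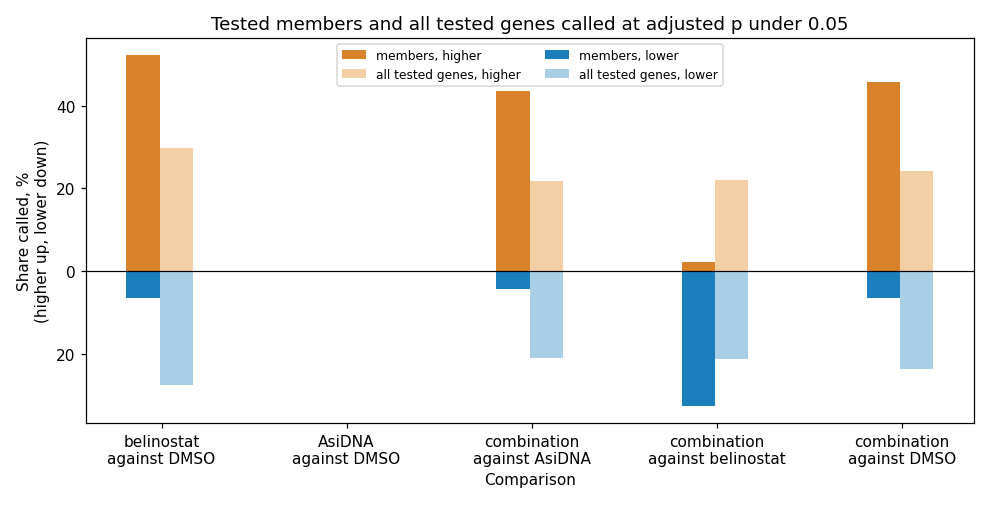
Share of genes called at an adjusted p under 0.05 (vertical axis, percent, higher calls above the line and lower calls below it) in 5 comparisons, for the 46 tested cilia genes (dark bars) and all 14741 tested genes (pale bars). With belinostat against DMSO 52.2% of the cilia genes were higher and 6.52% lower, and in the combination against belinostat 2.17% were higher and 32.6% lower.

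Among the intermediate and light chains, DNAI1, the outer arm intermediate chain that is a common site of mutation in primary ciliary dyskinesia, had the largest response. DNAI1 (chr9:34457414-34520989, plus strand) had 0.202 and 0 CPM in DMSO, 0.121 and 0.29 in AsiDNA, 38.4 and 30.2 in belinostat and 8.83 and 7.67 in the combination. The gene went from 2 counts in the DMSO libraries together to 507 in the belinostat libraries, a ratio of 354 after scaling for depth, with a 95% counting interval from 97.5 to 2930 (adjusted p 2.47e-08). Both belinostat libraries lay far above the others, both combination libraries far above DMSO and AsiDNA, and no groups with and without belinostat overlapped. DNAI7, a protein associated with axonemal dynein, stood at 0.202 and 0.292 CPM in DMSO, 0.362 and 0 in AsiDNA, 4.68 and 3.88 in belinostat and 2.83 and 3.07 in the combination. Its log2 fold change with belinostat against DMSO was 4.04 ± 0.61 (SE, adjusted p 9.38e-05). DNAI4, an inner arm intermediate chain, stood at 0.807 and 1.07 CPM in DMSO, 1.81 and 1.74 in AsiDNA, 7.83 and 5.57 in belinostat and 6.99 and 5.5 in the combination, a rise of 2.83 ± 0.38 against DMSO on the log2 scale (adjusted p 3.07e-05). For DNAI4 the belinostat and combination libraries overlapped.

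DNALI1, the inner arm light intermediate chain, went the other way. DNALI1 (chr1:37556919-37566857, plus strand) stood at 3.93 and 4.86 CPM in DMSO, 4.22 and 5.95 in AsiDNA, 2.34 and 2.19 in belinostat and 2.83 and 2.17 in the combination. Its log2 fold change was -0.95 ± 0.35 (adjusted p 0.0349), and every library with belinostat lay below every library without it. The call was lost with DESeq2 and when DMSO replicate 2 or either belinostat replicate was left out. DNAI3 had a log2 fold change of 0.66 ± 0.41 and was not called (adjusted p 0.187).

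**Figure D3:**
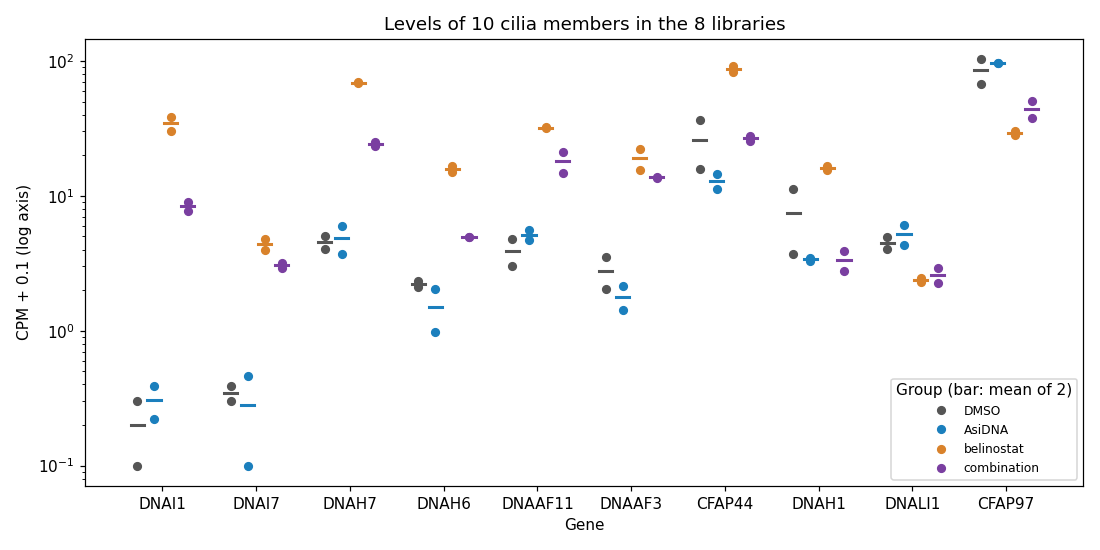
Levels of 10 cilia genes in the 8 libraries, as CPM + 0.1 on a log axis, with 1 point per library, colours for the 4 groups and a bar at the mean of 2 libraries. The 6 genes on the left sit higher in both belinostat libraries than in both DMSO libraries by a wide gap, DNAH1 and CFAP44 show the spread between the DMSO replicates, and DNALI1 and CFAP97 sit lower with belinostat.

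Among the 6 tested heavy chains, the motor subunits, DNAH7, DNAH6 and DNAH1 rose and DNAH5, DNAH11 and DNAH12 were not called. DNAH7 (chr2:195737703-196068812, minus strand) had 3.93 and 4.96 CPM in DMSO, 5.91 and 3.63 in AsiDNA, 68.3 and 69.7 in belinostat and 24.8 and 23.3 in the combination. Its log2 fold change of 3.95 ± 0.20 with belinostat against DMSO had the smallest adjusted p of the 46 genes (1.94e-08). For DNAH7 the 2 belinostat libraries were close to each other, as were the 2 combination libraries. The combination lay between the belinostat group and the DMSO and AsiDNA groups. DNAH6 had 2.02 and 2.23 CPM in DMSO, 1.93 and 0.871 in AsiDNA, 15 and 16.5 in belinostat and 4.83 and 4.86 in the combination, a rise of 2.88 ± 0.30 (adjusted p 3.44e-06). DNAH1 had 3.63 and 11.1 CPM in DMSO, 3.37 and 3.2 in AsiDNA, 15.4 and 16.5 in belinostat and 3.83 and 2.68 in the combination. The DMSO replicates of DNAH1 lay far apart, and its log2 fold change of 1.11 ± 0.36 (adjusted p 0.0178) became 0.51 when DMSO replicate 1 was left out and 2.11 when DMSO replicate 2 was. It was called in both, and not called when either belinostat replicate was left out, with library size scaling, or once the sense-intronic share entered the model. The outer arm chains DNAH5 (0.53 ± 0.30, adjusted p 0.148) and DNAH11 (0.75 ± 0.46, adjusted p 0.175) and the inner arm chain DNAH12 (0.97 ± 0.56, adjusted p 0.156) were not called, and the difference between inner and outer arm chains was not tested. Among untested inner arm chains, DNAH2 had 2 counts in the DMSO libraries together and 25 in belinostat, a scaled ratio of 17.5 (95% counting interval 4.35 to 152). DNAH3 had 2 and 15 counts, a ratio of 10.5 (2.43 to 94.4).

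Of the 8 tested assembly factors, which fold and join dynein arms in the cytoplasm, 4 rose with belinostat, 1 fell and 3 were not called. DNAAF11, once named LRRC6 (chr8:132571953-132675617, minus strand), had 2.92 and 4.66 CPM in DMSO, 4.58 and 5.52 in AsiDNA, 31.6 and 32.2 in belinostat and 21.1 and 14.7 in the combination. It rose by 3.06 ± 0.25 on the log2 scale (adjusted p 4.59e-07). DNAAF3 had 3.43 and 1.94 CPM in DMSO, 1.33 and 2.03 in AsiDNA, 22.2 and 15.5 in belinostat and 13.7 and 13.5 in the combination, a rise of 2.82 ± 0.29 (adjusted p 3.69e-06). For both genes every library with belinostat lay above every library without it. DNAAF1 had 0 and 0.389 CPM in DMSO, no count in AsiDNA, 4.79 and 2.19 in belinostat and 0.999 and 0.511 in the combination, a rise of 4.08 ± 0.82 against DMSO (adjusted p 0.00101). DNAAF4 had 0.504 and 0.583 CPM in DMSO, 1.21 and 0.871 in AsiDNA, 1.52 and 1.69 in belinostat and 1.67 and 1.79 in the combination, a rise of 1.53 ± 0.55 (adjusted p 0.0301). Exons of DNAAF4 are shared in part with the read-through gene DNAAF4-CCPG1 on the same strand, so its counts are uncertain. DNAAF5 fell by 0.62 on the log2 scale (SE 0.16, adjusted p 0.00449), while DNAAF2 (0.16 ± 0.26), DNAAF9 (0.04 ± 0.19) and DNAAF10 (0.10 ± 0.23) were not called.

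The ruler protein CCDC40, which with CCDC39 sets the repeat along the doublet, rose without its partner being detected. CCDC40 had 1.51 and 1.75 CPM in DMSO, 1.33 and 1.6 in AsiDNA, 8.65 and 5.91 in belinostat and 5.16 and 3.96 in the combination, a rise of 2.16 ± 0.35 on the log2 scale (adjusted p 0.000162). CCDC39 had no count in any library under either of its 2 Ensembl identifiers. RSPH4A, a radial spoke head protein, had 0.202 and 0.292 CPM in DMSO, 0.121 and 0.29 in AsiDNA, 2.1 and 1.01 in belinostat and 1.17 and 1.79 in the combination, a rise of 2.63 ± 0.71 (adjusted p 0.00644) that was not called without belinostat replicate 1. RSPH3, a spoke stalk protein, was the more abundant of the 2 tested spoke genes, with 21.9 and 18.2 CPM in DMSO, 20.8 and 19 in AsiDNA, 28.2 and 23.5 in belinostat and 24.5 and 29.8 in the combination. Its log2 fold change of 0.38 ± 0.17 with belinostat was not called (adjusted p 0.0788).

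Of the 24 tested CFAP genes, a mixed class of axonemal and ciliary proteins, 12 rose with belinostat, 1 fell and 11 were not called. CFAP70, an outer arm associated protein, had 1.21 and 1.85 CPM in DMSO, 1.45 and 0.581 in AsiDNA, 15 and 9.96 in belinostat and 5.5 and 4.47 in the combination, a rise of 3.03 ± 0.37 (adjusted p 1.48e-05). CFAP65, known from the sperm flagellum, had 0.302 and 0.292 CPM in DMSO, 0.121 and 0.145 in AsiDNA, 4.44 and 1.69 in belinostat and 1.67 and 1.15 in the combination, a rise of 3.35 ± 0.65 (adjusted p 0.000653). CFAP43, which tethers inner arm motors, had 0.504 and 0 CPM in DMSO, 0.121 and 0.145 in AsiDNA, 3.16 and 1.01 in belinostat and 3.33 and 1.41 in the combination, a rise of 3.06 ± 0.90 (adjusted p 0.0102) that was not called without belinostat replicate 1. CFAP65 and CFAP43 were below 1 CPM in each library without belinostat, and CFAP70 was the best covered of the 3. CFAP299 had 1 count in the DMSO libraries together and 37 in belinostat, a scaled ratio of 51.7 (95% counting interval 8.71 to 2090, adjusted p 0.000227). Its levels were 0 and 0.0972 CPM in DMSO, 0.362 and 0.145 in AsiDNA, 1.99 and 3.38 in belinostat and 0.999 and 0.511 in the combination.

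The abundant CFAP genes included the strongest fall. CFAP97 (chr4:185159665-185209504, minus strand) had 103 and 67.5 CPM in DMSO, 95.9 and 96.4 in AsiDNA, 30.3 and 28.2 in belinostat and 37.6 and 50 in the combination. It fell by 1.54 on the log2 scale with belinostat (SE 0.19, adjusted p 1.81e-05), and the libraries with and without belinostat did not overlap. CFAP36, a ciliary protein that binds the small GTPase ARL3, had 55.4 and 59.8 CPM in DMSO, 59.3 and 59.4 in AsiDNA, 90.1 and 92.7 in belinostat and 84.3 and 86.8 in the combination, a rise of 0.67 ± 0.12 (adjusted p 0.000326). CFAP44, the partner of CFAP43, had 15.7 and 36.2 CPM in DMSO, 11.2 and 14.4 in AsiDNA, 82.4 and 92.2 in belinostat and 27.5 and 25.6 in the combination, a rise of 1.74 ± 0.26 (adjusted p 9.24e-05). The DMSO replicates of CFAP44 lay on either side of the combination libraries. CFAP20, which joins the tubules of a doublet, had 28.7 and 23.5 CPM in DMSO, 31.7 and 32.7 in AsiDNA, 24.7 and 20.8 in belinostat and 24.3 and 25.1 in the combination, and was not called (log2 fold change -0.19 ± 0.16, adjusted p 0.32). The other CFAP genes that rose, with their log2 fold changes, were CFAP54 (2.44), CFAP53 (1.97), CFAP69 (1.94), CFAP251 (1.83), CFAP91 (1.57) and CFAP119 (1.44). Per kilobase of exon, the highest levels in DMSO were those of CFAP36 (16.4 RPKM), CFAP97 (11.9) and CFAP20 (11). In belinostat they were those of CFAP36 (26.1 RPKM), DNAAF11 (11.5), CFAP20 (9.56) and DNAI1 (9.48), so that DNAI1 went from 0.0279 RPKM to a level near that of CFAP20.

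Combination against AsiDNA gives the belinostat change in cells under long-term AsiDNA, between libraries other than those of belinostat against DMSO. All 8 libraries shared the filter, the fit and the estimate of the spread, so these comparisons are not independent. Of the 46 tested genes 20 rose and 2 fell, with a background of 42.9% of all tested genes called, 21.7% higher and 21.2% lower. The median log2 fold change of the 46 was 0.56, and that of all tested genes 0.02. Of the 36 genes that reached the filter level without belinostat, 13 rose and 2 fell (36.1% and 5.56%), with a median of 0.14. Among all 13295 genes that did so, 21% rose and 23.4% fell, with a median of -0.04. Of the 10 that reached it only with belinostat 7 rose, with a median of 3.04. The filter favours such genes when they are higher with belinostat. Among all 1446 of them, 28.4% rose here, with a median of 1.09. The 20 genes that rose were all among the 24 that rose with belinostat against DMSO, and the 2 that fell, CFAP97 (-1.13 ± 0.19, adjusted p 0.000317) and DNALI1 (-1.02 ± 0.36, adjusted p 0.0326), were among its 3. The 4 genes called higher with belinostat against DMSO and not called here were CFAP299, CFAP53, DNAAF4 and DNAH1, and DNAAF5 was called lower there and not here. DNAI1 went from 3 counts in the AsiDNA libraries together to 113 in the combination, a scaled ratio of 41.4 (95% counting interval 13.8 to 204, adjusted p 3.39e-06). DNAI7 went from 3 counts to 41, a ratio of 15.0 (4.79 to 75.7, adjusted p 0.000779). DNAAF1, at 0 in AsiDNA, had 10 counts in the combination and was at least 3.66-fold higher, taking 3 counts over the group as the floor. The log2 fold changes of the better covered genes were 3.03 ± 0.34 for DNAAF3, 2.31 ± 0.22 for DNAH7, 2.23 ± 0.45 for CFAP70, 1.82 ± 0.26 for DNAAF11, 1.80 ± 0.36 for DNAI4, 1.74 ± 0.37 for DNAH6 and 1.63 ± 0.39 for CCDC40. MALAT1 and NEAT1 were higher here too (2.06% and 3.12% against 0.688% and 0.753%), while the sense-intronic share was not (0.044% and 0.0561% against 0.051% and 0.0556%).

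**Figure D4:**
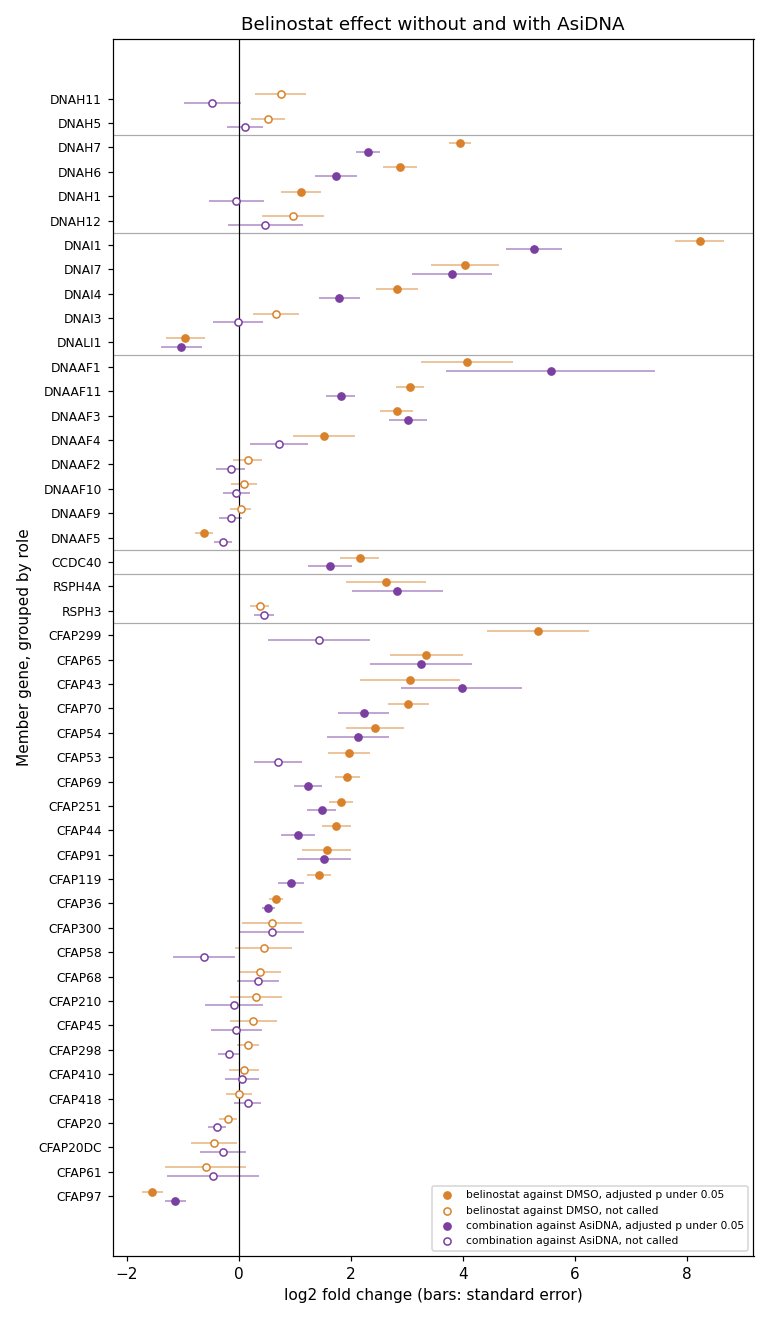
Log2 fold change (horizontal axis) with its standard error (bars) of the 46 tested genes, grouped by role, for belinostat against DMSO (orange) and the combination against AsiDNA (purple), with filled points for an adjusted p under 0.05. Most points of both comparisons lie to the right of 0, DNALI1 and CFAP97 lie to the left in both, and the purple value of DNAAF1 is a fitted value against a group with no count.

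Combination against belinostat asks how cells under long-term AsiDNA differed from cells without it when both were given belinostat. Of the 46 tested genes 15 fell and 1 rose, where 43.4% of all tested genes were called, 21.4% lower and 22% higher. The median log2 fold change of the 46 was -0.54, and that of all tested genes -0.01. Of the 36 genes that reached the filter level without belinostat, 12 fell and 1 rose (33.3% and 2.78%), with a median of -0.51. Among all 13295 such genes 20.6% fell and 24.3% rose, with a median of 0.06. Of the 10 that reached it only with belinostat, 3 fell (DNAI1, DNAAF1 and CFAP299). The filter favours those that are higher with belinostat. Among all 1446 of them 29.4% fell and 0.761% rose, with a median of -1.12. DNAI1 fell by 2.07 on the log2 scale (SE 0.25, adjusted p 0.000271) and DNAH7 by 1.52 (SE 0.17, adjusted p 0.000271). DNAH1 (-2.31 ± 0.42), CFAP44 (-1.72 ± 0.27), DNAH6 (-1.70 ± 0.28), CFAP70 (-1.34 ± 0.33), CFAP69 (-1.11 ± 0.21), CFAP251 (-0.94 ± 0.22) and DNAAF11 (-0.84 ± 0.22) also fell. The other genes that fell were DNAAF1 (-2.27), CFAP299 (-1.82), CFAP53 (-1.26), CFAP119 (-0.86), CFAP410 (-0.77) and DNAAF9 (-0.75), and CFAP97 rose (0.58 ± 0.20, adjusted p 0.0297). DNAAF3 (-0.49 ± 0.26, adjusted p 0.137), CCDC40 (-0.70 ± 0.33, adjusted p 0.0957), DNAI7 (-0.54 ± 0.45, adjusted p 0.348) and DNAI4 (-0.13 ± 0.31, adjusted p 0.76) were not called. The belinostat and combination libraries also differed in MALAT1 and NEAT1 (12.2% and 13.4% against 3.12% and 2.06%) and in the sense-intronic share (0.128% and 0.142% against 0.0561% and 0.044%). Once the sense-intronic share entered the model, no cilia gene was called in this comparison and 0.577% of all tested genes were, down from 43.4%. In that model the median log2 fold change of the 46 was -0.14. The log2 fold changes were -2.95 for DNAI1, -1.36 for DNAH6 and -1.01 for DNAH7, with adjusted p of 0.267, 0.543 and 0.391. Those of CFAP44 and DNAH1 were -0.14 and -0.05, with adjusted p of 0.933 and 0.989. The share and the treatment differ together between these 4 libraries and cannot be told apart there. Fewer genes were called without combination replicate 2 or either belinostat replicate, among the cilia genes and among all tested genes. The median log2 fold change of the tested cilia genes was -0.42 without combination replicate 2, against 0 for all tested genes. It was -0.32 without belinostat replicate 1 and -0.54 without belinostat replicate 2, against 0.04 and 0.03.

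AsiDNA against DMSO, the effect of long-term AsiDNA alone, called none of the 46 genes by edgeR's quasi-likelihood test, where 0.0204% of all tested genes were called. At an unadjusted p under 0.05 there were 5 genes, all lower, and the share of all tested genes at that p was not counted. DESeq2 called 0 of the 46, where it called 0.224% of all tested genes. The smallest adjusted p belonged to CFAP44 (log2 fold change -1.03 ± 0.30, adjusted p 0.322), followed by DNAAF9 (-0.57 ± 0.20, adjusted p 0.366). DNAAF9, a factor for outer arm delivery, had 17.1 and 21.3 CPM in DMSO, 12.9 and 12.9 in AsiDNA, 17.3 and 22.4 in belinostat and 12.8 and 10.7 in the combination, so that both AsiDNA groups lay below both groups without AsiDNA. Without DMSO replicate 1, 5 genes were called lower and 2 higher in this comparison, together with 31.6% of all tested genes, and without DMSO replicate 2 no cilia gene was. In the combination against DMSO, 21 genes rose and 3 fell, where 48.1% of all tested genes were called, 24.3% higher and 23.7% lower. Of the 36 genes that reached the filter level without belinostat, 13 rose and 3 fell (36.1% and 8.33%), with a median log2 fold change of 0.05. Among all 13295 such genes 23.9% rose and 26% fell, with a median of -0.05. Of the 10 that reached it only with belinostat, which the filter favours when higher there, 8 rose. Among all 1446 of them 28% rose. The 3 that fell were CFAP97 (-0.96 ± 0.19), DNAH1 (-1.20 ± 0.43) and DNAAF9 (-0.71 ± 0.20, adjusted p 0.01), and RSPH3 (0.44 ± 0.17, adjusted p 0.0486) was among those that rose. The comparisons against DMSO share the DMSO libraries, and those with the combination share its libraries.

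The test of whether the belinostat change differed with AsiDNA, an interaction term, called none of the 46 genes by edgeR, where 0.00678% of all tested genes were called. At an unadjusted p under 0.05 there were 6 genes, all with a smaller belinostat change under AsiDNA. The share of all tested genes at that unadjusted p was not counted. DESeq2 called 1 of the 46, where it called 4.17% of all tested genes. The smallest adjusted p was that of DNAH7 (difference of log2 fold changes -1.64 ± 0.31, adjusted p 0.0628), followed by DNAAF11 (-1.24 ± 0.37, adjusted p 0.0983), which was called with no filter on low counts (adjusted p 0.031). DNAH7 was the gene DESeq2 called (adjusted p 0.00261). DNAH7 also passed with library size scaling (adjusted p 0.0442), with either other filter, once the sense-intronic share entered the model, and when either DMSO replicate was left out. Without DMSO replicate 2, 7 cilia genes were called lower and 1 higher in this test, together with 34.6% of all tested genes.

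Genes of the axoneme that fall outside the name rule also rose more often than they fell. Of 38 such axoneme genes, 24 were tested. Of these 24, 17 rose with belinostat against DMSO and 2 fell (70.8% and 8.33%), with a median log2 fold change of 1.12. Among all tested genes 29.8% rose and 27.6% fell. Of the genes that reached the filter level only with belinostat 57.2% rose, against 26.8% of the other tested genes. The lists in this paragraph were not split in this way, so the filter may add to their higher shares. They were chosen with earlier results of these data known. SPEF2, of the central apparatus (2.42 ± 0.18), DAW1, a dynein arm transport factor (1.90 ± 0.19), and TTC29 (4.87 ± 0.53) rose. MNS1, of the lumen of the doublet (-1.63 ± 0.23), and SPAG1, an assembly factor (-1.38 ± 0.25), fell. Of 27 tested genes of intraflagellar transport, which builds primary and motile cilia alike, 18 rose and 1 fell (66.7% and 3.7%), with WDR19 at 2.30 ± 0.18 and DYNC2I2 at -2.31 ± 0.14. Of the 9 genes of the BBSome, the cargo adaptor of that transport, with its partner ARL6, 6 rose and 1 fell (66.7% and 11.1%). The 19 tested genes of cytoplasmic dynein and dynactin, which carry cargo in the cell body, had 5 higher and 5 lower (26.3% each), near the shares of all tested genes.

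Among the upstream regulators, of 9 tested genes of the multiciliation list, 3 rose with belinostat and 2 fell (33.3% and 22.2%), shares near those of all tested genes (29.8% and 27.6%). RFX2 rose from 8.57 and 10.3 CPM in DMSO to 27 and 27.3 in belinostat (log2 fold change 1.52 ± 0.18) and stood at 21.8 and 22 in the combination. RFX3 rose from 15.6 and 20.3 to 40.5 and 42 CPM (1.20 ± 0.16) and stood at 20.8 and 21 in the combination. TP73, which acts above FOXJ1 in multiciliated cells, fell (-2.93 ± 0.71) from 1.41 and 1.94 CPM in DMSO to 0.234 and 0.169 in belinostat, RFX1 fell (-0.66 ± 0.20) and E2F4 rose (0.62 ± 0.12). Among the 18 genes with an X-box, 9 were tested, of which 7 rose with belinostat and 1 fell. Among the 59 with a window and no X-box, 28 were tested, of which 11 rose and 2 fell. The difference between these counts was not tested.

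Markers of other cell types were read in the same libraries, and several moved with belinostat, as did 57.4% of all tested genes (29.8% higher and 27.6% lower). These lists are short and were not split by the filter level, so the filter may add to their higher shares. Of the 11 markers of multiciliated cells in the table, 7 were tested, of which 3 rose with belinostat and 1 fell. The share called, 57.1%, was near that of all tested genes. It was 75% for the tested neuronal markers, 75% for the astrocyte and glioma markers and 66.7% for the mesenchymal markers. The multiciliated list overlaps the genes described here in FOXJ1 and the axoneme list in SPAG6 and HYDIN. SNTN, an apical cilium tip protein, had no count in any library. CAPS rose from 4.13 and 3.4 CPM to 21.6 and 19.6 (2.45 ± 0.23), whereas TUBB4B, the main beta tubulin of cilia and also a general tubulin, fell from 971 and 717 to 182 and 177 CPM (-2.23 ± 0.15). The summed level of the multiciliated list was 994.9 and 740.7 CPM in DMSO, 1035 and 1124 in AsiDNA, 233.3 and 227.3 in belinostat and 433 and 413.6 in the combination, which TUBB4B dominated. None of the 7 sperm markers was tested, and their sum stayed at or below 0.256 CPM in each library. Of 4 tested neuronal markers 3 rose, with SYP, a synaptic vesicle protein, going from 1.41 and 1.46 to 54.4 and 50.8 CPM, and the list's sum went from 54.84 and 73.17 CPM in DMSO to 202.7 and 212.3 in belinostat. Of 9 astrocyte and glioma markers 4 were tested, of which SOX9 (1.28 ± 0.26) and NES (2.60 ± 0.21) rose and VIM (-1.66 ± 0.19) fell. The sum of that list was 5521 and 3488 CPM in DMSO, 5892 and 5976 in AsiDNA, 1523 and 1404 in belinostat and 3911 and 4186 in the combination, most of it VIM. Of 6 tested mesenchymal markers FN1 (1.17 ± 0.17) and COL3A1 (2.03 ± 0.26) rose, and COL1A2 (-0.49 ± 0.12) and ACTA2 (-1.88 ± 0.36) fell. Their list's sum was 15840 and 14750 CPM in DMSO, 14470 and 15290 in AsiDNA, 34400 and 29100 in belinostat and 34120 and 33950 in the combination, most of it FN1. The part of any other program in the cilia gene changes was not tested.

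Exons of other genes overlap some of the genes described. Of the 24 that rose with belinostat, 13 share no exon base with another gene in GENCODE 29, 5 share bases with a gene on the opposite strand and 6 with a gene on the same strand. DNAI1, DNAI7, DNAH7, DNAH6, DNAAF11 and CCDC40 are among the 13. CFAP251 shares exon bases with PSMD9, CFAP299 with FGF5, and CFAP44, CFAP91 and DNAAF3 with unnamed genes on their own strands, so that their counts are less certain. The libraries were stranded, but the sources used here do not state the strand setting of the counting.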

How the data were processed

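The 8 libraries were made from total RNA of U87 cells with a stranded, ribosomal RNA depleting kit, per the labels' protocols. The submitters' processing notes name cutadapt 1.16, STAR 2.7.0, Subread with featureCounts 1.6.3, and the build GRCh38. The authors deposited whole-number counts per Ensembl gene. The sources used here do not give the annotation release or strand setting. The table has 58884 rows, of which 58876 were paired with a symbol, and 14741 passed edgeR's filterByExpr (minimum count 10). Gene type, exon length and coordinates came from GENCODE 29 (GRCh38), and promoters from RefSeq (GRCh38.p14).

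The counts were fitted in R 4.3.3 with edgeR 4.0.16 (TMM factors, 1 coefficient per group, 4 residual degrees of freedom, quasi-likelihood F-test, Benjamini-Hochberg adjustment over 14741 genes), after a check on simulated data. SE is the log2 fold change divided by the square root of F. CPM uses TMM-scaled library sizes and RPKM divides it by exon length. Ratios against a group with 1 to 3 counts carry an exact 95% interval that covers counting error only. DESeq2 1.42.0, other scaling and filters, a replicate block and leaving out each library were the alternatives. The genes with values in every library are the called genes with the largest belinostat change in each role, up to 4, those with the smallest adjusted p in the other tests, and the 4 most abundant; CCDC39, CCDC40, DNAI1, DNALI1 and FOXJ1 are always named, and DNAH2, DNAH3 and the genes named as not called were added after their values were seen. Members and lists were chosen with earlier results of these data known.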

Additional observations from a re-analysis of the deposited data

How the results depend on the processing

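With 2 libraries a group, the settings that moved the counts were these. Of the 27 genes called with belinostat against DMSO, 20 kept their call in each of 15 settings (scaling, tool, filter, replicate block, the added term below and each left-out library; the stricter p and the 2-fold rule not counted), against 12 of 22 in the combination against AsiDNA, 0 of 16 in the combination against belinostat and 10 of 24 in the combination against DMSO. Leaving out 1 library at a time gave 19 to 28 higher and 2 to 3 lower genes for belinostat against DMSO, 0 to 2 and 0 to 5 for AsiDNA against DMSO, 13 to 22 and 1 to 3 for the combination against AsiDNA, 0 to 1 and 6 to 19 for the combination against belinostat, 12 to 19 and 1 to 6 for the combination against DMSO, and 0 to 1 and 0 to 7 for the interaction. At an adjusted p under 0.01 the combination against AsiDNA had 1 lower gene, the combination against belinostat 0 higher, and the combination against DMSO 13 higher and 1 lower. Of all tested genes 29.7%, 25.8% and 33.9% were called there, in either direction. Requiring a 2-fold change left 1 lower gene for belinostat against DMSO, 0 higher for the combination against belinostat and 1 lower for the combination against DMSO. Of all tested genes it left 30.3%, 15.5% and 22%, in either direction. Library size scaling gave 4 lower genes in the combination against AsiDNA, 6 in the combination against DMSO and 1 in the interaction. It called 44.3%, 49.7% and 1.07% of all tested genes, in either direction. With no filter the lower genes were 2 for AsiDNA against DMSO (DNAH1 and CFAP44), 5 for the combination against DMSO and 2 for the interaction. There 86 cilia genes were tested, and 1.69%, 23.5% and 5.02% of all tested genes were called, in either direction. DESeq2 gave 1 lower gene in the combination against AsiDNA and 1 in the interaction, and a filter at 1 CPM gave 1 in the interaction. Of all tested genes DESeq2 called 36.9% and 4.17% there, in either direction. The 1 CPM filter, with 49 cilia genes tested, called 2.3%. The cause of these changes was not tested.

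A model term for the sense-intronic share was chosen after seeing the data. With it the combination against belinostat had 0 higher and 0 lower genes and the interaction 1 lower, where 0.577% and 1.61% of all tested genes were called. Its log2 fold changes against belinostat turned to 0.14 for CFAP251, 3.21 for CFAP299, 0.17 for CFAP410, -0.35 for CFAP97, 0.10 for DNAAF1 and 0.29 for DNAAF11, and that of DNAH1 in the combination against DMSO to 0.10; the cause was not tested. The replicate numbers share only a name: deviations of same-numbered libraries correlated between -0.37 and 0.23 across pairs of groups. A replicate block gave 24 higher and 3 lower genes for belinostat against DMSO, 20 and 2 for the combination against AsiDNA, 1 and 15 for the combination against belinostat and 20 and 3 for the combination against DMSO. Of all tested genes it called 56.8%, 42.2%, 43.1% and 47.3%, in either direction.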
